A study of Homo sapiens with 12 samples.

Results

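The caspase-2 PIDDosome and the p53 genes around it were followed through a pooled knockout screen as 9 of the 20915 gene names in the sgRNA count table: PIDD, CRADD, CASP2, MDM2, MDM4, ATM, CHEK2, TP53BP1 and USP28. Each gene was targeted by 6 sgRNAs, so 54 of the 123411 sgRNA entries belonged to these genes. The set was selected by name from measured values, namely drug-free growth and lapatinib response in both lines of this screen. The values of those 4 comparisons and of the differences between lines built from them are therefore given as a description, and nothing is supported by them. Only the comparison of the 2 lines at baseline was not used to choose the genes.

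The PIDDosome is a complex in which the scaffold PIDD and the adaptor CRADD (also called RAIDD) bring caspase-2 molecules together, so that the protease activates itself. It is known to form at surplus centrosomes, for example after failed cytokinesis, where active caspase-2 cleaves MDM2, and p53 is then stabilised. MDM2 and MDM4 are the main inhibitors of p53. The kinases ATM and CHEK2 signal to p53 after DNA breaks, while TP53BP1 and the deubiquitinase USP28 carry the signal of a prolonged or centrosome-less mitosis.

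N87, a HER2-amplified gastric cancer line, and OE19, a HER2-amplified adenocarcinoma line of the oesophagogastric junction, were transduced with the lentiviral GeCKO V2 library, which delivers Cas9 and 1 sgRNA to a cell, at a multiplicity of infection of 0.3. Transduced cells of both lines were selected for 7 days with puromycin, at 0.75 µg/mL for N87 and 1.5 µg/mL for OE19, and collected as baseline. The rest grew for 14 days with DMSO, the vehicle, or with lapatinib, which blocks the kinase activity of EGFR and HER2, at 0.5 µM for N87 and 1 µM for OE19. The study describes 2 separate infections per line, giving 2 replicates in each of 6 conditions and 12 libraries, and a count is the number of reads of an sgRNA in genomic DNA, not a level of RNA or protein. An sgRNA that gains share during growth marks cells that multiplied more, or were lost less, than the rest of the pool.

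The libraries held 13105805 to 33743599 counts, and the median count of the 54 sgRNAs lay between 48 and 220 per library. The OE19 lapatinib libraries were the shallowest of the 12, with 13105805 and 16378926 counts. In N87 52.3% of the control guides, which target no gene, were called different between lapatinib and DMSO. In GRCh37 coordinates (GENCODE release 44), PIDD, now named PIDD1, lies on chromosome 11 from 799179 to 809753 on the minus strand, CRADD on chromosome 12 from 94071151 to 94288616 on the plus strand, and CASP2 on chromosome 7 from 142985308 to 143004789 on the plus strand. MDM2 lies on chromosome 12 from 69201957 to 69239324 and MDM4 on chromosome 1 from 204485507 to 204527248, both on the plus strand. ATM (chromosome 11, 108093771 to 108239829) is on the plus strand. CHEK2 (chromosome 22, 29083731 to 29138410), TP53BP1 (chromosome 15, 43695259 to 43802926) and USP28 (chromosome 11, 113668596 to 113746294) are on the minus strand. The library was designed against coding exons, but the cut positions of the sgRNAs were not used here.

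In N87 growing without drug, sgRNAs against all 3 PIDDosome genes gained share, with medians that were close to each other, and none of the other 6 genes passed as higher. The median log2 fold change of DMSO over baseline was 0.39 for CASP2 (SD over sgRNAs 0.27, n = 6), 0.39 for PIDD (SD 0.21, n = 6) and 0.38 for CRADD (SD 0.23, n = 6), against a median of 0.02 over all genes. By median these 3 genes stood at ranks 11, 12 and 14 from the top of 20727 genes with at least 4 tested sgRNAs, while the middle 90% of genes lay between -0.37 and 0.18. The gene score, a robust rank aggregation of the sgRNA p-values from edgeR's quasi-likelihood test, put CASP2 at rank 6, CRADD at rank 10 and PIDD at rank 11. With these ranks all 3 were among the 12 genes called higher of 20894 scored, which is 0.0574% of genes.

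**Figure D1:**
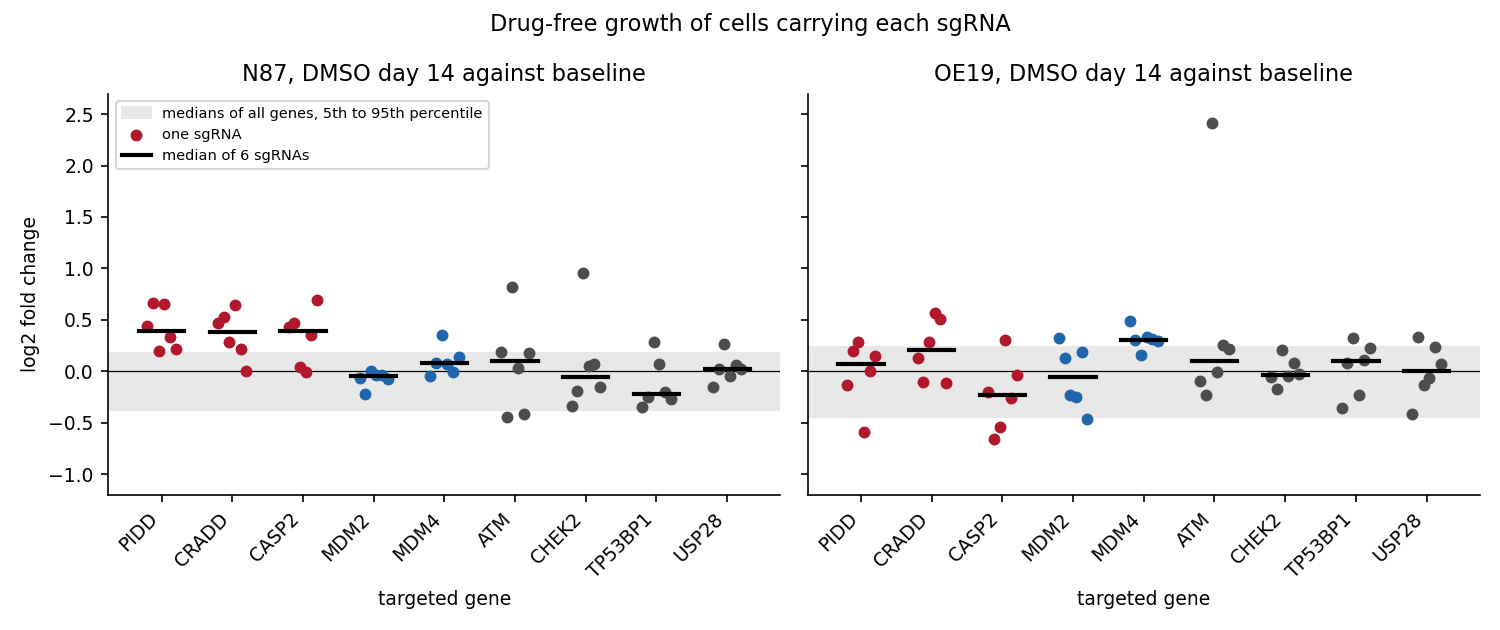
Log2 fold change of each sgRNA in drug-free growth (DMSO at day 14 against baseline) for N87 (left) and OE19 (right), with 1 point per sgRNA (PIDDosome red, MDM genes blue, others grey), a black bar at the median of 6 sgRNAs and a grey band for the 5th to 95th percentile of the medians of all genes. The medians of PIDD, CRADD and CASP2 lie above the band in N87 (0.39, 0.38 and 0.39) and within it in OE19 (0.07, 0.21 and -0.23).

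The gains were small for any one sgRNA. For PIDD, the scaffold, the normalized counts summed over its 6 sgRNAs were 1286 and 1319 in the baseline replicates 1 and 2 of N87 and 1624 and 1829 in the DMSO replicates, a 1.33-fold difference of the means. For CRADD, the adaptor, they were 1236 and 1225 at baseline and 1408 and 1924 with DMSO, 1.35-fold. For CASP2, the protease, they were 1297 and 1433 at baseline and 1559 and 1976 with DMSO, 1.29-fold. In each gene both DMSO libraries lay above both baseline libraries, and DMSO replicate 2 was the higher. MDM2 and TP53BP1 were separate in the other direction. The share of all genes or sgRNAs with separate libraries is not given here, for this comparison or those below. Separate libraries are therefore only a description and do not set these genes apart. The medians of the log2 fold change in replicate pairs 1 and 2 were 0.24 and 0.56 for PIDD, 0.06 and 0.62 for CRADD, and 0.20 and 0.47 for CASP2.

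Within the genes, the gain was spread over sgRNAs. All 6 sgRNAs of PIDD were above 0, from 0.19 to 0.66, all 6 of CRADD, from 0.01 to 0.64, and 5 of 6 of CASP2, from -0.01 to 0.69. CASP2 sgRNA 6, the highest of the 18, had normalized counts of 192 and 252 at baseline and 289 and 429 with DMSO. PIDD sgRNA 2 had 322 and 276 at baseline and 498 and 450 with DMSO, and CRADD sgRNA 4 had 93.1 and 117 at baseline and 140 and 189 with DMSO. In these sgRNAs, the highest of each gene, both DMSO libraries were higher than both baseline libraries. CASP2 sgRNA 4 did not gain, with 298 and 325 at baseline and 285 and 335 with DMSO. Of the 18 sgRNAs, 17 were above 0 and 13 were higher in both replicate pairs, and 29.2% of all sgRNAs were higher in both. The 9 sgRNAs from half-library A had a median of 0.44 and the 9 from half-library B a median of 0.33.

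No member sgRNA passed edgeR's test singly when the replicate number was not in the model. Of the 54, 0 were called higher and 0 lower after adjustment over 122948 sgRNAs, of which 0% were called higher and 0.0399% lower. At an unadjusted p under 0.05, 11 were higher, 10 of them PIDDosome sgRNAs, and 1 was lower, where 7.65% of all sgRNAs had such a p in either direction, and DESeq2 called 1 higher. The gene calls rested on 2 of the 4 libraries: without N87 DMSO replicate 2 or without N87 baseline replicate 1, 0 of the 3 genes passed the gene score, without baseline replicate 2 CASP2 and CRADD passed, and without DMSO replicate 1 all 3 did. The medians stayed above 0 in all 9 alternatives, from 0.21 to 0.52 for CASP2, 0.06 to 0.57 for CRADD and 0.18 to 0.54 for PIDD.

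**Figure D2:**
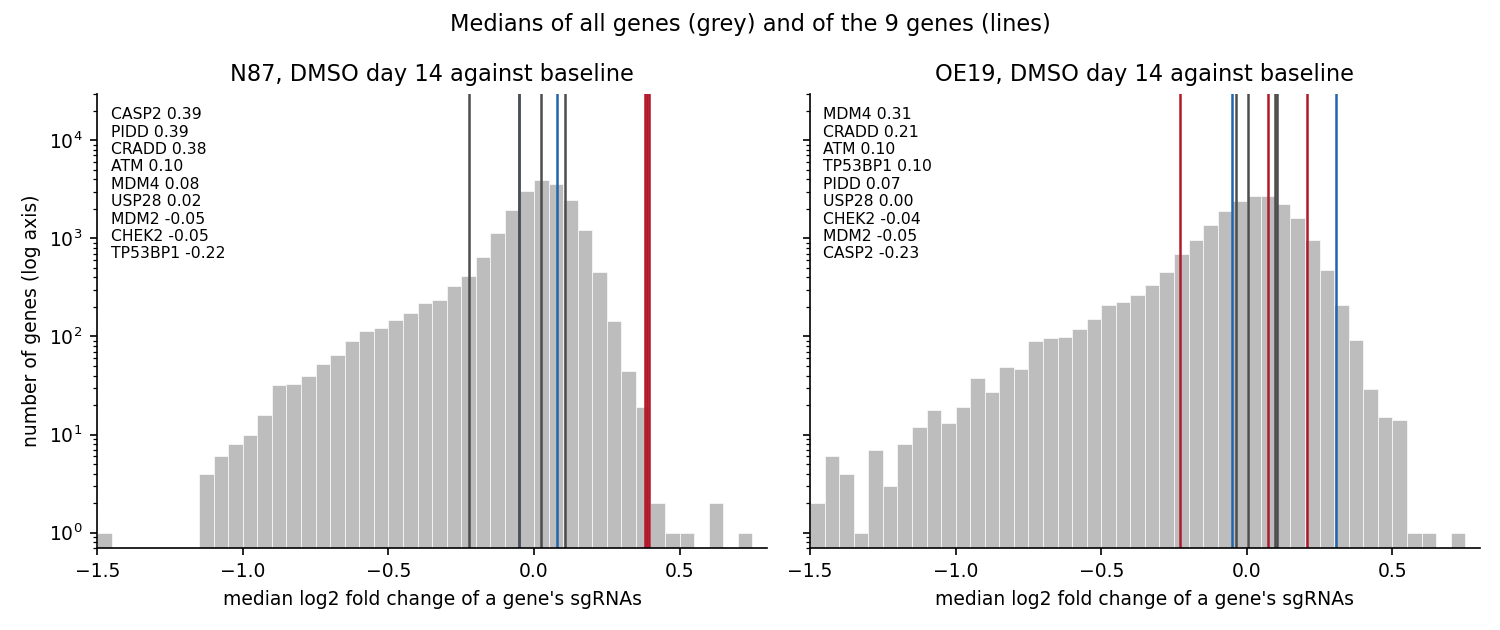
Number of genes (log axis) by the median log2 fold change of their sgRNAs in drug-free growth, N87 left and OE19 right, with a line for each of the 9 genes (PIDDosome red, MDM genes blue, others grey) and their medians printed. The 3 PIDDosome lines fall together in the upper tail of N87, and 8 genes below -1.5 in OE19 are not drawn.

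Genes beside the PIDDosome genes on the chromosome had lower medians. The protein-coding genes within 1 Mb that were measured had medians of 0.08 around CASP2, 0.03 around CRADD and -0.01 around PIDD in N87 growth. Those with a higher median than the gene were 0 of 32, 0 of 8 and 0 of 52. The ranks of CASP2, PIDD and CRADD by median over all genes, 11, 12 and 14, made such counts nearly certain beforehand. An effect of position was not tested. The control guides, which make no cut in a gene, had a median of 0.09 in the same comparison, with a 95th percentile of 0.37. That percentile is over single control guides, so it is not a like measure for the median of a gene's sgRNAs.

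The inhibitors, kinases and mitotic surveillance genes had medians within the middle 90% of all genes in N87 growth. MDM2, the ubiquitin ligase of p53, had a median of -0.05 with 0 of 6 sgRNAs above 0, and its summed normalized counts were 676 and 665 at baseline and 643 and 642 with DMSO. MDM4, its partner, had a median of 0.08, with 760 and 646 at baseline and 771 and 737 with DMSO. The 2 MDM4 groups overlapped, and the MDM2 groups were separate by a small step.

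ATM, the kinase at DNA breaks, had a median of 0.10, CHEK2, its downstream kinase, -0.05, and USP28 0.02. CHEK2 sgRNA 3 reached 0.96, the highest of all 54, but from 1 library: its normalized counts were 103 and 90 at baseline and 266 and 109 with DMSO. TP53BP1 had the lowest median, -0.22, with 4 of 6 sgRNAs below 0 and summed counts of 1028 and 999 at baseline and 904 and 862 with DMSO. That places TP53BP1 at rank 1917 from the bottom. None of these 6 genes passed the gene score in N87 growth in either direction, where 2.34% of all genes were called lower.

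In OE19 growing without drug, the PIDDosome genes did not move together. CASP2 had a median of -0.23 (SD 0.35, n = 6) with 1 of 6 sgRNAs above 0, CRADD 0.21 (SD 0.29, n = 6) with 4 of 6, and PIDD 0.07 (SD 0.32, n = 6) with 3 of 6. The summed normalized counts of CASP2 were 1333 and 1268 at baseline and 1256 and 1105 with DMSO, both DMSO libraries just below both baseline libraries. Those of CRADD were 1250 and 1180 at baseline and 1423 and 1302 with DMSO, and those of PIDD 1206 and 1226 at baseline and 1310 and 1306 with DMSO. Both of these genes had higher totals in the DMSO libraries, by 1.12-fold and 1.08-fold. The lowest log2 fold change of the 54 sgRNAs, -0.66, was that of CASP2 sgRNA 2, with 318 and 297 at baseline and 177 and 216 with DMSO, the same sgRNA that had 334 and 352 at baseline and 397 and 553 with DMSO in N87.

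MDM4 had the highest median of the 9 genes in OE19 growth, 0.31 (SD 0.11, n = 6), with all 6 sgRNAs above 0 and rank 321 from the top of 20723 genes. Its summed counts were 823 and 735 at baseline and 1069 and 855 with DMSO, so both DMSO libraries were higher. The control guides had a median of 0.19 in this comparison, and the middle 90% of all gene medians ran from -0.45 to 0.24. MDM2 was at -0.05, with its groups overlapping (573 and 678 at baseline, 608 and 597 with DMSO). ATM was at 0.10, TP53BP1 at 0.10, USP28 at 0.00 and CHEK2 at -0.04. ATM sgRNA 3 reached 2.41 from the fewest reads of the set, with normalized counts of 7.0 and 4.2 at baseline and 45.7 and 12.5 with DMSO.

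Of the 54 sgRNAs, 0 were called higher and 0 lower in OE19 growth by edgeR, where 0.0114% of all sgRNAs were called higher and 0.893% lower. At an unadjusted p under 0.05 there were 3 higher and 2 lower, where 12.8% of all sgRNAs had such a p in either direction, and DESeq2 called 0 of each. No member gene passed the gene score, with 0% of genes called higher and 1.53% lower. At an unadjusted p of that score under 0.05 there were 2 genes higher and 0 lower, and with DESeq2 the score again called 0 genes. The 2 were CRADD, at rank 474 of the 20894 genes scored, and ATM, at rank 1031. Many other genes thus passed the same unadjusted p.

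Set against each other, the lines were farthest apart in growth for CASP2 among the 9 genes. The interaction of line and growth, OE19 minus N87 on the log2 scale, had a median of -0.63 for CASP2 (SD 0.47, n = 6), -0.40 for PIDD (SD 0.47, n = 6) and -0.10 for CRADD (SD 0.31, n = 6). Of the 18 sgRNAs 15 were below 0, 5 in each gene. CASP2 passed the gene score as lower, at rank 26, among 40 genes or 0.191% of those scored, with 0.0383% called higher. PIDD and CRADD did not pass it. Without N87 DMSO replicate 2, N87 baseline replicate 1, OE19 DMSO replicate 2 or OE19 baseline replicate 1, each left out alone, CASP2 did not pass either, though its median remained between -0.74 and -0.49 in all 13 alternatives.

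Single sgRNAs did not carry this difference past the threshold: 0 of the 54 were called higher and 0 lower by edgeR (0% and 0.00325% of all sgRNAs), 0 and 7 at an unadjusted p under 0.05, and DESeq2 called 1 lower. All 7 were PIDDosome sgRNAs, and 5.82% of all gene-targeting sgRNAs had such a p in either direction. The medians of the other 6 genes in the interaction lay between 0.00 for MDM2 and 0.24 for MDM4.

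**Figure D3:**
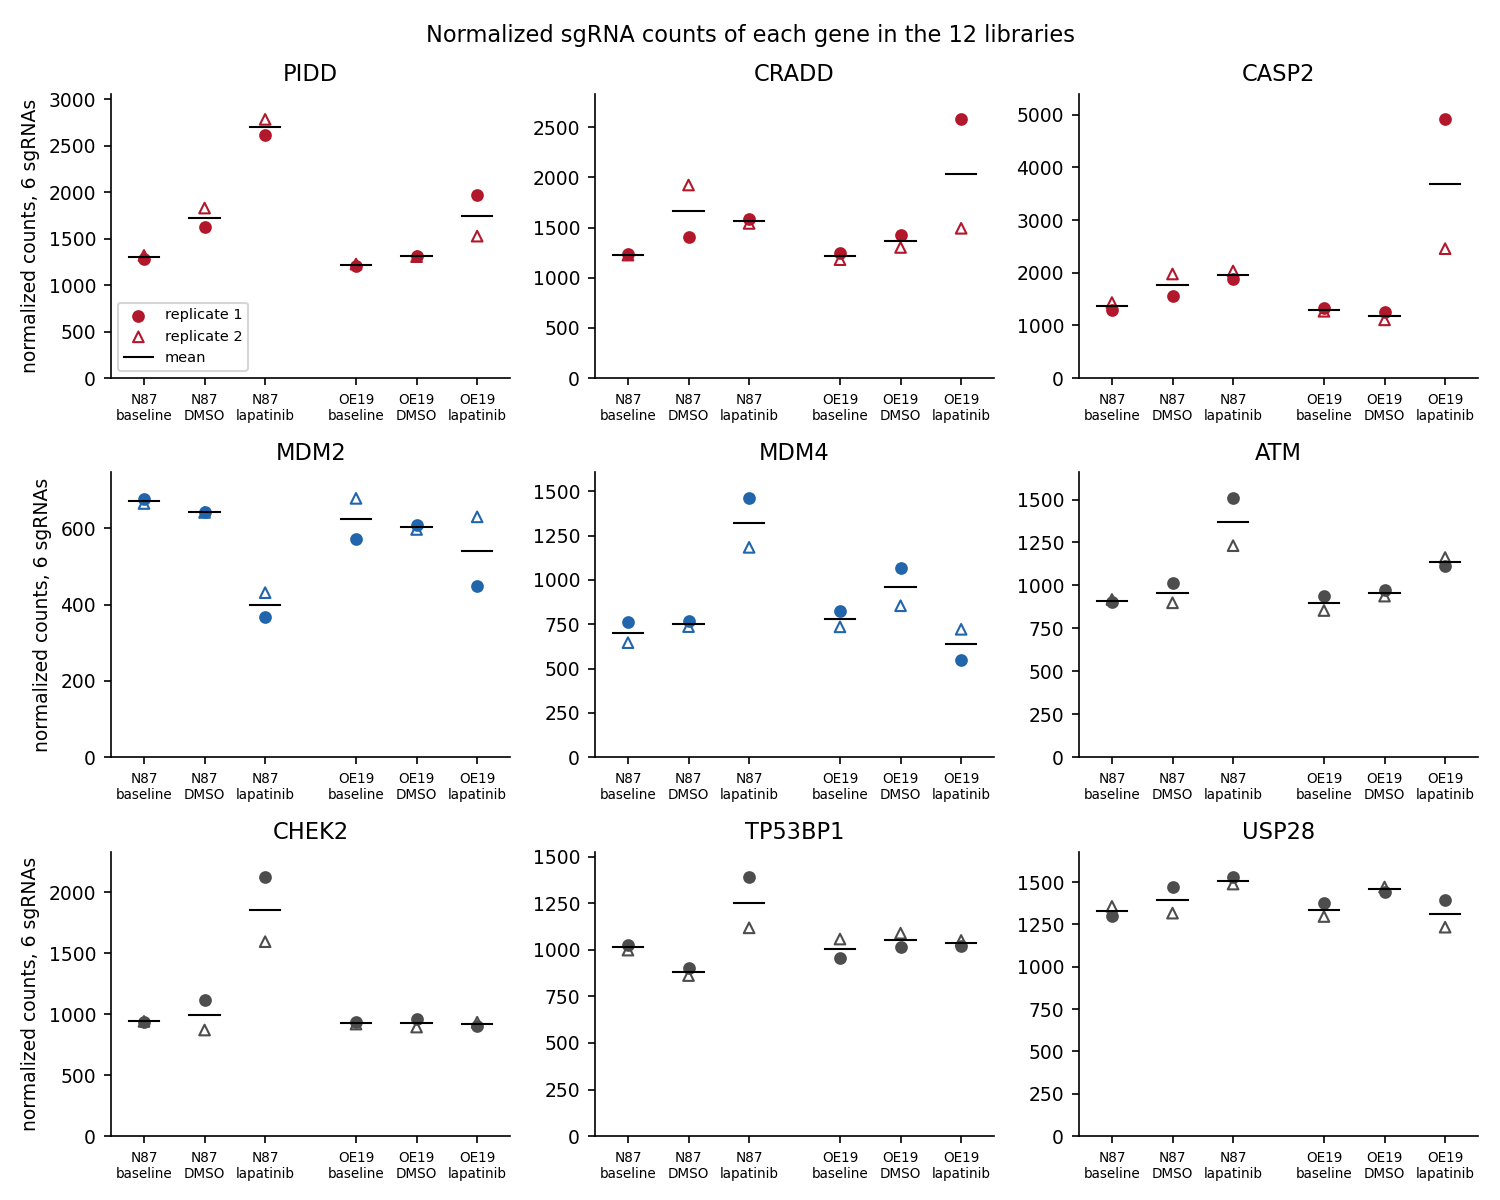
Normalized counts summed over the 6 sgRNAs of each gene in every library, by line and condition, with filled circles for replicate 1, open triangles for replicate 2 and a bar at the mean; each panel starts at 0 and has its own scale. N87 DMSO lies above N87 baseline for PIDD, CRADD and CASP2, and OE19 lapatinib replicate 1 is far above the other libraries for CASP2 (4911).

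At baseline no difference between the lines was called for these genes, in the comparison that had no part in choosing them but shares its baseline libraries with both growth comparisons. Of 53 tested sgRNAs (ATM sgRNA 3 had too few counts) 0 were called higher in OE19 and 0 lower by edgeR, against 0.922% and 0.0431% of all sgRNAs. At an unadjusted p under 0.05 there were 1 higher and 3 lower, where 8.57% of all sgRNAs had such a p in either direction, and DESeq2 called 0. No member gene passed the gene score, where 1.78% of genes were called higher in OE19 and 0.00479% lower. The medians ran from -0.16 for MDM2 to 0.21 for MDM4. CASP2 was at -0.07 (SD 0.11, n = 6), PIDD at -0.05 (SD 0.19, n = 6) and CRADD at 0.03 (SD 0.10, n = 6), all within the middle 90% of genes, -0.15 to 0.20, while MDM2 and MDM4 lay just outside it. The summed counts of MDM4 were 760 and 646 in N87 and 823 and 735 in OE19, and those of MDM2 676 and 665 in N87 and 573 and 678 in OE19, so that in both genes the lines overlapped. A p that misses the threshold does not show that the shares were equal.

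With lapatinib in N87, sgRNAs against the same gene fell on both sides of 0. Of the 54 sgRNAs 15 were called higher and 18 lower than with DMSO, where 31.2% of all sgRNAs were called higher and 29.9% lower, and the middle 90% of control guides ran from -1.65 to 1.81. No member gene passed the gene score, at an unadjusted p under 0.05 neither, and DESeq2 gave 0 as well. Over all genes 0% were called higher and 0.0144% lower.

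**Figure D4:**
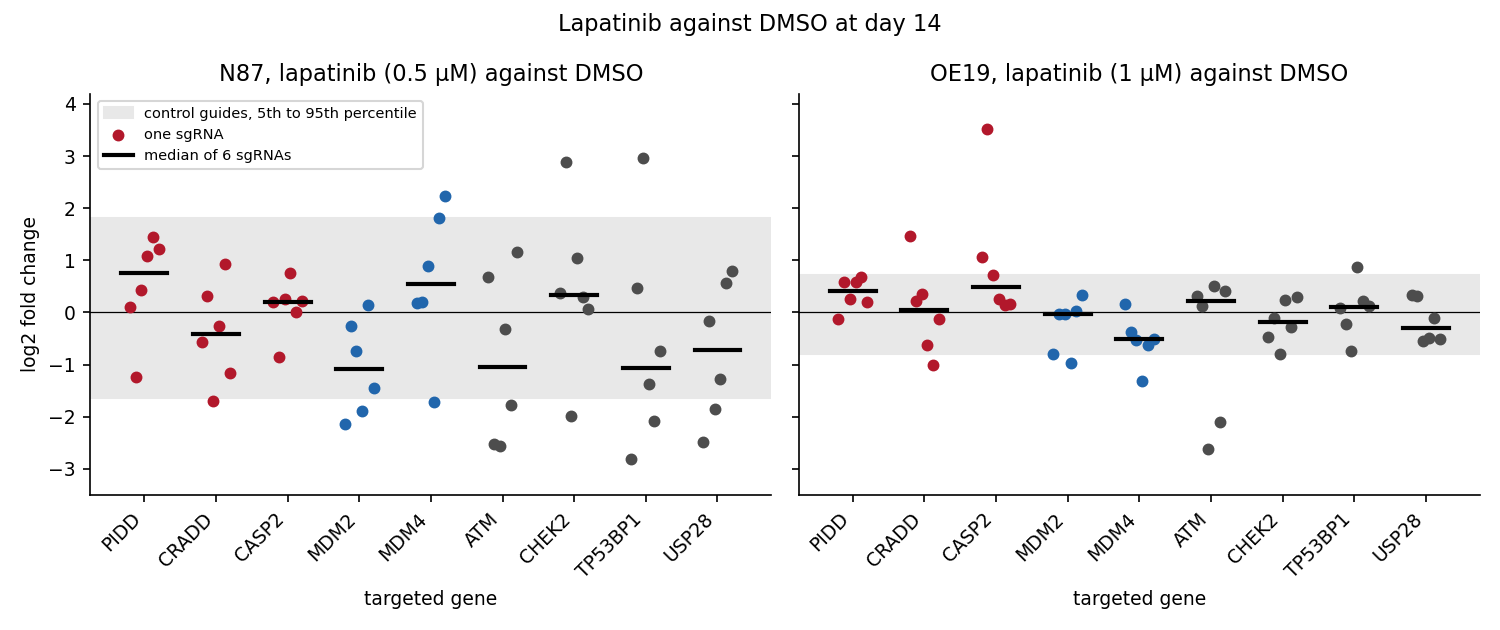
Log2 fold change of each sgRNA with lapatinib against DMSO at day 14, N87 at 0.5 µM (left) and OE19 at 1 µM (right), with 1 point per sgRNA, a bar at the median of 6 and a grey band for the 5th to 95th percentile of the control guides. In N87 the sgRNAs of most genes fall on both sides of 0, and in OE19 CASP2 sgRNA 2 stands alone at 3.51.

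PIDD had the highest median of the 9 genes in N87 with lapatinib, 0.76 (SD 1.00, n = 6), with 3 sgRNAs called higher and 1 lower. Its summed counts were 1624 and 1829 with DMSO and 2615 and 2783 with lapatinib, 1.56-fold. The N87 lapatinib libraries had a depth similar to that of the DMSO libraries but were divided by smaller factors. Normalized totals over the whole pool were therefore higher with lapatinib as well, and the higher total is not particular to PIDD. PIDD sgRNA 5 had 270 and 354 with DMSO and 887 and 873 with lapatinib, while PIDD sgRNA 2 had 498 and 450 with DMSO and 163 and 251 with lapatinib. PIDD sgRNA 2 was also the highest of that gene in drug-free growth, and both values share the DMSO libraries. The other PIDDosome genes were lower in median, CASP2 at 0.20 (SD 0.53, n = 6) and CRADD at -0.41 (SD 0.96, n = 6), and in both the lapatinib totals (1882 and 2032 for CASP2, 1581 and 1541 for CRADD) overlapped the DMSO totals.

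MDM2 had the lowest median in N87 with lapatinib, -1.09 (SD 0.92, n = 6), with 4 of 6 sgRNAs called lower and 0 higher. Its summed counts were 643 and 642 with DMSO and 366 and 431 with lapatinib, 0.621-fold. MDM4 went the other way in median, 0.55 (SD 1.41, n = 6), with 3 sgRNAs called higher and 1 lower and summed counts of 771 and 737 with DMSO and 1461 and 1184 with lapatinib. The rest had wide spreads over their sgRNAs. TP53BP1 ran from -2.82 to 2.96 with a median of -1.06, ATM from -2.56 to 1.15 with -1.05, USP28 from -2.48 to 0.79 with -0.73, and CHEK2 from -1.99 to 2.88 with 0.34. In all 4 genes the lapatinib totals of both libraries were above the DMSO totals. Totals over the whole pool were higher as well, so a higher total is not particular to these genes or to MDM4. The highest sgRNA of TP53BP1 had 59.5 and 57.6 with DMSO and 543 and 404 with lapatinib, and the highest of CHEK2 had 65.6 and 97.6 with DMSO and 763 and 485 with lapatinib. For TP53BP1 the total was thus higher with lapatinib while the median over sgRNAs was below 0.

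In OE19 with lapatinib, 1 of the 54 sgRNAs was called higher and 1 lower, where 2.33% of all sgRNAs were called higher and 0.0795% lower. The one called higher was CASP2 sgRNA 2, with normalized counts of 177 and 216 with DMSO and 3317 and 1248 with lapatinib, a log2 fold change of 3.51. CASP2 sgRNA 2 was also the lowest of the 54 in OE19 growth, and both values share the DMSO libraries. Against baseline its log2 fold change was 2.88 and was not called. In N87 the same sgRNA was called lower, with 397 and 553 with DMSO and 244 and 301 with lapatinib, at the lower dose. The other 5 sgRNAs of CASP2 ran from 0.14 to 1.07, all above 0, with a median of 0.26, and their summed counts were 1079 and 890 with DMSO and 1594 and 1209 with lapatinib. Both lapatinib libraries thus remained above both DMSO libraries without sgRNA 2. Normalized totals over the whole pool were higher with lapatinib as well, so this is not particular to CASP2 or to the other genes. The OE19 lapatinib libraries held 13105805 and 16378926 counts, divided by factors of 0.39 and 0.64. The DMSO libraries held 28801106 and 18428467, divided by 1.36 and 0.88. With all 6 the median was 0.49 (SD 1.29, n = 6).

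PIDD had a median of 0.42 (SD 0.31, n = 6) with 5 of 6 sgRNAs above 0, and summed counts of 1310 and 1306 with DMSO and 1966 and 1527 with lapatinib. Its higher total is likewise not particular to PIDD, since totals over the whole OE19 pool were higher too. CRADD had a median of 0.04 (SD 0.87, n = 6), and its total of 2578 in lapatinib replicate 1 rested on sgRNA 1, without which the totals were 980 and 1011 with DMSO and 1119 and 869 with lapatinib. Together 14 of the 18 PIDDosome sgRNAs were above 0, namely 6 of CASP2, 5 of PIDD and 3 of CRADD. Their median was 0.26 against -0.02 over all sgRNAs, and 47.1% of all gene medians were above 0. With baseline in place of DMSO 12 of the 18 were above 0, 8 of 9 from half-library A and 4 of 9 from half-library B. The genes were chosen from this comparison among others.

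Without either one of the OE19 DMSO libraries, or with baseline in place of DMSO, 0 of the 54 sgRNAs were called by edgeR in either direction. With all 4 libraries, 4 were higher and 5 lower at an unadjusted p under 0.05, where 15.4% of all sgRNAs had such a p in either direction, and DESeq2 called 2 higher and 1 lower.

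The sgRNA called lower in OE19 was MDM4 sgRNA 4, with 299 and 189 with DMSO and 93 and 106 with lapatinib. MDM4 as a whole had the lowest median in OE19, -0.51 (SD 0.47, n = 6), with 5 of 6 sgRNAs below 0, rank 553 from the bottom of 20625 genes, and summed counts of 1069 and 855 with DMSO and 550 and 722 with lapatinib. The MDM4 values in drug-free growth and with lapatinib share the DMSO libraries. MDM2 was at -0.04, ATM at 0.22, TP53BP1 at 0.11, CHEK2 at -0.19 and USP28 at -0.30. ATM sgRNA 5 had 112 and 70.4 with DMSO and 12.9 and 27.9 with lapatinib and did not pass the adjusted threshold. No member gene passed the gene score, where 0.0957% of genes were called higher and 0% lower. At an unadjusted p of the score under 0.05 there were 1 gene higher and 2 lower, and with DESeq2 the score called 0. CASP2 was the one higher, at rank 737 of the 20890 genes scored. MDM4 and ATM were lower, at ranks 299 and 347 in that direction. Many other genes thus passed the same unadjusted p.

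The lapatinib responses of the lines were at different doses, and their difference includes the dose. In the interaction of line and lapatinib 12 of the 54 sgRNAs were called higher in OE19 and 8 lower, where 20.7% and 20.5% of all sgRNAs were called. The medians ran from -0.98 for MDM4 to 1.59 for TP53BP1.

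The surrounding pathways were followed as 8 gene lists in drug-free growth, beside 57.3% of all gene medians above 0 in N87 and 53.6% in OE19. The control guides, which target no gene, had medians of 0.09 in N87 and 0.19 in OE19, so small list medians above 0 are not a gain over them. Genes of the centriole's distal appendages, where ANKRD26 is known to recruit PIDD to the centrosome, had 5 of 7 medians above 0 in N87 with a list median of 0.11, and 4 of 7 in OE19 with 0.02. ODF2, an appendage protein, was at 0.33 (SD 0.19, n = 6) and ANKRD26 at 0.29 (SD 0.20, n = 6) in N87, the highest of the list, and at -0.04 and 0.02 in OE19. CEP89 at -0.08 and FBF1 at -0.04 were the lowest in N87. The ends of the list in OE19 were CEP164 at 0.16 and C2CD3 at -0.29. The 24 listed p53 target genes, of arrest and death but also of repair and metabolism, had 21 medians above 0 in N87. Their list median was 0.08, and in OE19 14 medians were above 0, with a list median of 0.02. The list of caspase-2 substrates and death domain partners also held CASP8, CASP9 and APAF1. Of its 9 medians 8 were above 0 in N87 and 5 in OE19, with list medians of 0.05 and 0.03. BID, a substrate of caspase-2 that links it to mitochondria, was the highest in N87 at 0.24 and the lowest in OE19 at -0.31. At the other ends of this list were TRADD at -0.12 in N87 and GOLGA3 at 0.27 in OE19. In these 3 lists no gene passed the gene score in growth.

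**Figure D5:**
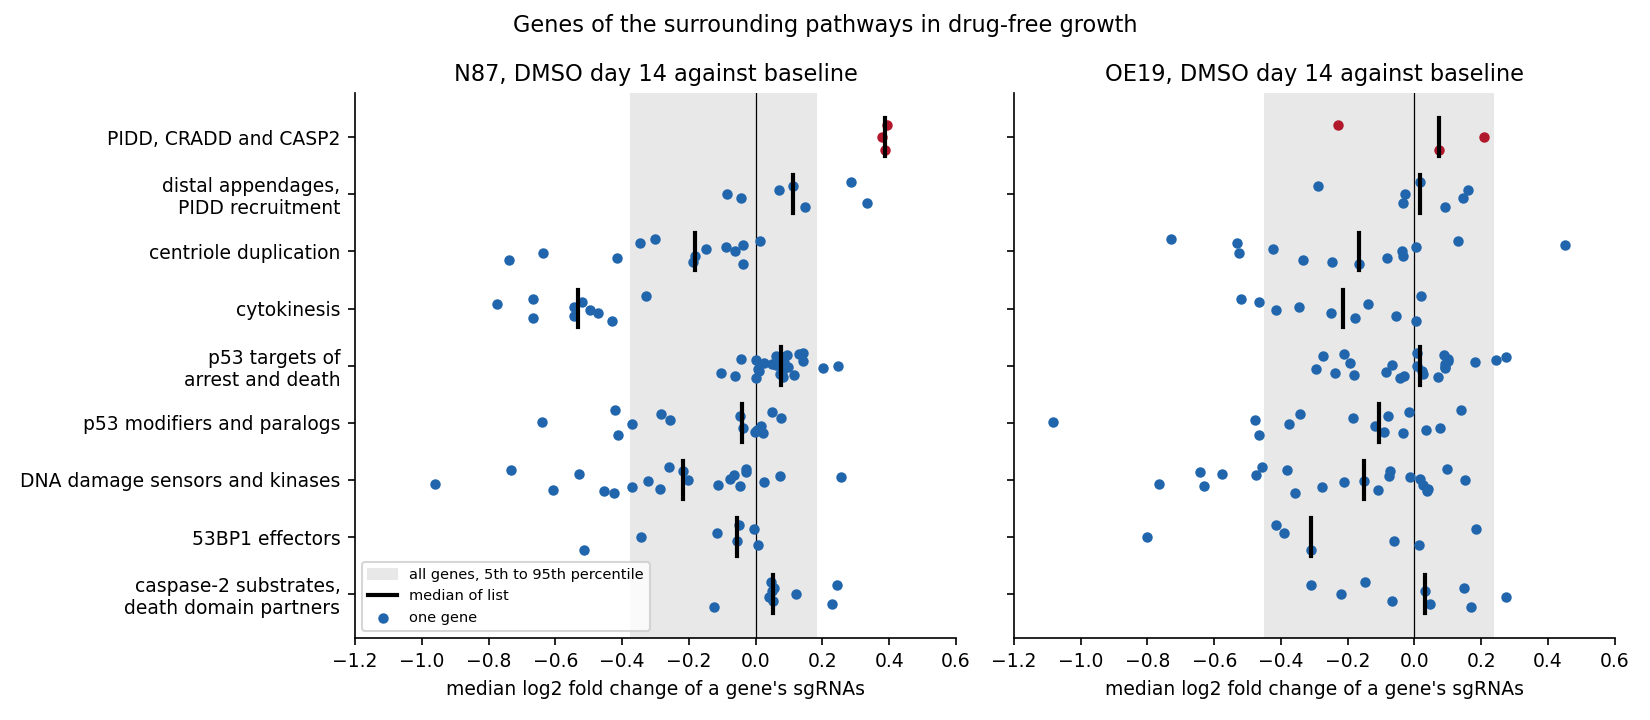
Median log2 fold change of each gene's sgRNAs in drug-free growth for PIDD, CRADD and CASP2 (red) and for 8 lists of surrounding genes (blue), N87 left and OE19 right, with a bar at each list's median and a grey band for the middle 90% of all genes. In N87 all 10 cytokinesis genes lie below 0 and all 3 PIDDosome genes at 0.38 to 0.39.

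Genes of cell division had medians mostly below 0. All 10 cytokinesis genes had medians below 0 in N87, with a list median of -0.53, and KIF23 (-0.54), PRC1 (-0.67) and AURKB (-0.67), which build the central spindle or regulate abscission, passed the gene score as lower. In OE19 the list median was -0.21, with 2 of 10 medians above 0. Among 13 centriole duplication genes 12 had medians at or below 0 in N87, and SASS6 (-0.74), the cartwheel protein, and CEP97 (-0.64), a cap of the centriole, passed as lower. In OE19 3 of the 13 medians were above 0, and the list medians were -0.18 in N87 and -0.17 in OE19. Of 21 DNA damage sensors and kinases RAD9A, part of a checkpoint clamp, passed as lower in N87 (-0.96), and MDC1, a mediator at DNA breaks, in OE19 (-0.48). Of 14 p53 modifiers and paralogs RPL11, a ribosomal protein that also binds MDM2, passed as lower in OE19 (-1.08). Of 7 partners and effectors of TP53BP1 MAD2L2 did so (-0.80). The DNA damage list had medians of -0.22 in N87 and -0.15 in OE19, with 3 and 6 genes above 0. The p53 modifiers were at -0.04 and -0.10, with 5 and 3 genes above 0. The partners and effectors of TP53BP1 were at -0.06 and -0.31, with 1 and 2 genes above 0. At baseline STIL (0.35), RPL11 (0.72), CHEK1 (0.81) and WEE1 (0.91) passed as higher in OE19 than in N87. Of the 105 list genes 6 thus passed as lower in N87 growth, 3 as lower in OE19 growth and 4 as higher at baseline, where 2.34%, 1.53% and 1.78% of all genes did.

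The genes most like the mean of CASP2, CRADD and PIDD, by Euclidean distance over 8 values (2 replicate pairs in each of the 4 growth and lapatinib comparisons), were SLC15A4, DRG2, FBXO27, DMKN and PCDH18, at distances of 0.34 to 0.40 among 20573 genes. CASP2 itself ranked 20, PIDD 1734 and CRADD 3914 by the same distance. In N87 growth SLC15A4, the nearest, had 0.19 and 0.28 in replicate pairs 1 and 2, where the mean of the 3 genes was 0.17 and 0.55.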

How the data were processed

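The deposited table holds raw sgRNA counts, whole numbers that the authors obtained by trimming reads, mapping them to the library with Bowtie2 (version 2.3.2 in the submitters' processing notes, with FastQC 0.11.5) and merging; the notes also name MAGeCK 0.5.6, which was not run here. sgRNAs with at least 40 counts over the 4 libraries of a comparison (80 over 8 for an interaction) were tested with edgeR 4.0.16 in R 4.3.3 (TMM factors, glmQLFit, glmQLFTest), Benjamini-Hochberg adjusted over all of them, with a threshold of 0.05. Robust rank aggregation of one-sided p-values (alpha 0.05, exact distribution; Python 3.11.15) gave a score to each gene that had 2 or more tested sgRNAs, adjusted over all genes. The scripts were tested on simulated data. Normalized counts use median-of-ratios factors, and log2 folds of replicate pairs a pseudocount of 1. Gene values are medians over sgRNAs, which share a target and are not replicates of a condition. Groups came from the sample titles, with 2 replicates each, so p-values measure only the spread between these libraries. Reads had no molecular identifiers, so counting error treats reads as independent. Named genes were the 9 members, list genes with at least 3 sgRNAs called in 1 direction or past the gene score, and the 5 genes nearest to the PIDDosome mean; the rule also covers 52 list genes in N87 lapatinib and 25 in the lapatinib interaction, which are not described here. In growth, ODF2, ANKRD26, CEP89, FBF1, CEP164, C2CD3, BID, TRADD and GOLGA3 were named outside this rule, from the ends of their lists. The members and lists were chosen with earlier results of these data known. DESeq2 1.42.0, no filter, total counts, control-guide factors, a replicate block, each library left out, and lapatinib against baseline were the alternatives. The sequences of the sgRNAs were not used here.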

Additional observations from a re-analysis of the deposited data

Results flagged for a closer look

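The growth of CASP2 knockouts differed between the lines: the median over 6 sgRNAs of the log2 difference, OE19 minus N87, was -0.63, and CASP2 passed the gene score of the interaction. It did not pass without N87 DMSO replicate 2, N87 baseline replicate 1, OE19 DMSO replicate 2 or OE19 baseline replicate 1, each left out alone. Both replicate pairs had medians above 0 in N87 (0.20 and 0.47) and below 0 in OE19 (-0.23 and -0.24). CASP2 was chosen from these comparisons, so the difference is a description.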

How the results depend on the processing

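Counts of member sgRNAs and genes moved under some alternatives, and in those cases the cause was not tested. The share of all sgRNAs called under each alternative, DESeq2 and the replicate block included, is not given here. The counts therefore do not show how unusual the members were under that alternative. In N87 growth the 0 sgRNAs called higher became 1 with DESeq2, and 0 to 12 when 1 library was left out, with 0 to 1 lower and 0 to 3 genes higher. In OE19 growth 1 was lower with control-guide factors, and leaving out a library gave 0 to 8 higher and 0 to 3 lower. In N87 lapatinib the 15 higher became 8 with total counts, and the 18 lower ran from 8 to 19 without a library. In OE19 lapatinib the 1 higher became 2 with DESeq2 or control guides and 0 against baseline, the 1 lower became 0 with control guides or against baseline, and both ran from 0 to 5 without a library. In the growth interaction 1 sgRNA was lower with DESeq2, 0 to 1 without a library, and the genes lower were 0 to 1. In the lapatinib interaction the 12 higher ran from 6 to 13 and the 8 lower became 5 with control guides. At baseline no count moved.

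With the replicate number as a block, 9 sgRNAs were higher in N87 growth, 1 higher and 1 lower in OE19 growth, 0 lower in OE19 lapatinib and 1 lower in the growth interaction. No label says that the numbers pair the libraries, and the differences between replicates 1 and 2 correlated between DMSO and baseline at 0.238 in N87 and 0.0771 in OE19 over 122651 sgRNAs.

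The medians of CASP2, CRADD and CHEK2 in N87 lapatinib changed sign under some alternatives, with ranges of -0.32 to 0.49, -0.93 to 0.15 and -0.19 to 0.38. In OE19 lapatinib those of PIDD (-0.05 to 0.64), CRADD (-0.42 to 0.27), ATM, CHEK2, MDM2 and TP53BP1 did so. Sign changes in N87 growth were those of ATM, CHEK2, MDM2, MDM4 and USP28. In OE19 growth they were those of ATM, CHEK2, MDM2, PIDD, TP53BP1 and USP28. Some medians at baseline and in the interactions changed sign as well. Depth was lowest in OE19 lapatinib replicate 1, where the median member sgRNA had 48 counts, and each condition had 2 libraries.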
